A study of Mus musculus with 16 samples.

Results

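The genes described here are 9 of the secreted side of WNT signalling: the soluble WNT antagonists Sfrp1, Sfrp2, Sfrp5, Frzb, Dkk1, Dkk3 and Wif1, and the WNT secretion genes Wls and Porcn. They were chosen by name, with earlier results of these data known, and all 9 were found among the 35976 genes of the count table. RNA came from neural tube organoids on day 4, grown from R1, a mouse embryonic stem cell line, and the libraries were made by BRB-seq, which barcodes and pools bulk samples and reads mostly the 3′ ends of transcripts. Each of 4 groups, called gates here, had 4 libraries: cells with negative, low, medium or high FOXA2 expression. All 16 libraries carried the FOXA2-Venus reporter and had received RA for 18 hours, so the series holds no untreated group and no line without the reporter. FOXA2 is a transcription factor of the floor plate, the strip of cells along the tube's ventral midline. All material came from this 1 cell line, for which the labels give embryonic stem cells as the cell type, and no label says whether libraries of a gate came from separate cultures. The p-values therefore speak for the spread among these libraries alone, which may be technical.

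WNT proteins are lipid-modified in the endoplasmic reticulum by the acyltransferase PORCN and carried to the cell surface by WLS, and WNT ligands that miss this route are largely retained. Outside the cell, SFRP proteins, FRZB (also called SFRP3) and WIF1 can bind WNT ligands directly, whereas DKK1 blocks the co-receptors LRP5 and LRP6. In the developing neural tube, WNT ligands are made mainly by the dorsal midline, and several antagonist genes are expressed in domains of their own along the tube.

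Stretches before the RefSeq start site are shown for 3 genes, 1 for each pattern described below: Sfrp5, which fell toward the high gate, Wls, which was highest at an intermediate gate, and Dkk1, which rose. The first 2 are the 250 bases before the start, and the third is 30 bases around the only searched motif found in any member. All are read 5′ to 3′ on the gene's strand in GRCm38.p6, and capitals mark the motif.
Sfrp5, minus strand, chr19:42202253-42202502: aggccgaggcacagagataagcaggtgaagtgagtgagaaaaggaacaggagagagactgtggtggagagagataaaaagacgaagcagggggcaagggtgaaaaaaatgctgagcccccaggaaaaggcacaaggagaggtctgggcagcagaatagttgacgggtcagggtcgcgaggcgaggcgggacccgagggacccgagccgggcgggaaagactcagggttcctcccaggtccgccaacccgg
Wls, plus strand, chr3:159839400-159839649: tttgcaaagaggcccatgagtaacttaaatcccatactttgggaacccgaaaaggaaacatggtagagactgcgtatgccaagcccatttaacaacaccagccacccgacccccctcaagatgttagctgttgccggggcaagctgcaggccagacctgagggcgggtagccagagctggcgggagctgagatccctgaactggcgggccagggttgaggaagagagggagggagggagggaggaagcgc
Dkk1, minus strand, chr19:30549595-30549624: tcctcccaaagCTTTGAAatcccatcccgg
The RefSeq table held 6 of the 9 genes (Sfrp2, Sfrp5, Frzb, Dkk1, Wif1 and Wls). The TCF/LEF motif, searched as CTTTGAT or CTTTGAA on both strands of the 250 bases, was found in 1 of these 6, Dkk1, where it began 117 bases before the RefSeq start. GENCODE M21 places the Dkk1 start further upstream, so in that annotation this stretch is exonic and lies after the start. It was found in 7.48% of all 32851 promoters in the table. The FOXA motif TGTTTAC (3.17% of promoters) and the GLI motif GACCACCCA (0.225%) were in none of the 6 windows. A match describes only these letters.

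Totals ran from 3268948 counts in the shallowest library, in the high gate, to 9961032 in the deepest, in the negative gate. Levels are CPM, counts rescaled to a common library size, and 1 count was worth between 0.102 and 0.304 CPM. Foxa2, which defined the gates, averaged 2.91, 11.9, 52.0 and 113 CPM from negative to high. Of the markers for the labelled tissue, Pax6, Nes and Hes5 were present in every gate, while Sox1 and Sox2 were listed at 0 in all 16 libraries. Markers of several cell types moved with the gates. The summed level of 6 neural progenitor markers was 237 to 280 CPM in the negative libraries and 56.9 to 74.6 in the high ones, where all 4 tested members were lower. The 9 pluripotency and epiblast markers summed to 534 to 903 CPM in the negative gate and 47.5 to 68.8 in the high gate (7 of 8 tested lower, Pou5f1 at 0 in the high gate). Among the genes called lower in these lists, Sox3, Nanog and Esrrb averaged 1.30, 0.742 and 1.40 CPM in the high gate. These means are under the low-count filter's minimum of about 1.68 CPM. The 8 endoderm markers summed to 14.6 to 23.5 CPM in the negative gate and 137 to 171 in the high gate (2 of 4 tested higher, Hnf4a at 0 in the high gate). Most of this sum was Sox17, which averaged 11.7 and 134 CPM. Ttr, also called, had 1 count over the negative libraries and passed the low-count filter through gates where it is high. Gata4 (3.97 and 2.13 CPM) and Foxa3 (1.83 and 1.54 CPM) were not called. The 6 floor plate markers summed to 24.0 to 25.3 and 165 to 204 CPM (4 of 4 tested higher). Foxa2, which set the gates, is 1 of the 6, so its call and much of the rise of the sum followed from the sort. Foxa1 had 8 counts over the negative libraries and passed the low-count filter through gates where it is high. Spon1 averaged 9.01 and 28.4 CPM and Ntn1 11.8 and 28.2. Over all 13891 tested genes, 8.29% were called higher in high versus negative and 8.48% lower (adjusted p under 0.05). The part of these shifts in the results below was not tested. In bulk libraries, fewer cells of a type and less RNA per cell cannot be told apart.

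The antagonist genes moved in both directions. From the negative to the high gate, Sfrp1, Sfrp2, Sfrp5 and the secretion genes Wls and Porcn fell, whereas Frzb, Dkk1 and Dkk3 rose. Only Wif1 did not pass the filter on low counts. Dkk1 passed that filter only through the medium and high gates, with no negative or low library at the filter's minimum. Its calls are therefore not independent of the filter, and it is left out of the counts set beside a background here. At an adjusted p under 0.05, 2 of the 7 other tested genes were higher in the high gate, against a background of 8.29% of all 13891 tested genes, and 5 of 7 were lower, against 8.48%. These 7 also differed somewhere among the 4 gates, a call made for 13.4% of all genes, with adjusted p from 0.00333 for Frzb to 2.23e-10 for Sfrp2. Calls are from edgeR's quasi-likelihood test on all 16 libraries with Benjamini-Hochberg adjustment over all tested genes. As the genes were chosen with earlier results of these data known, counts beside a background are descriptive and do not test the set.

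**Figure D1:**
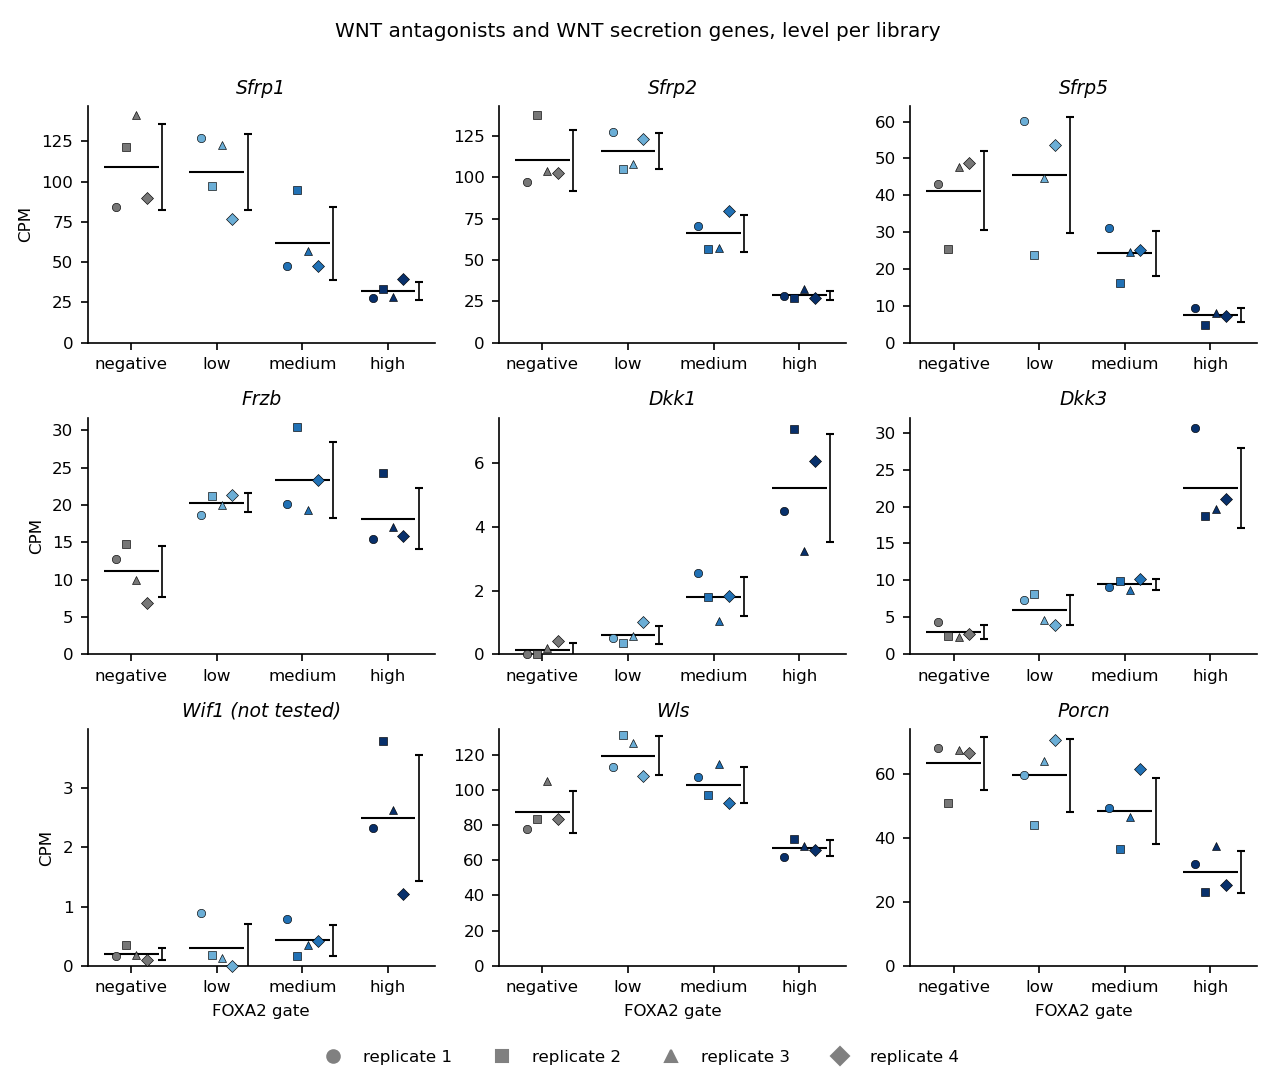
Level of each of the 9 genes (CPM, linear axes starting at 0 and differing between panels) in the 16 libraries, with points for libraries and bars for the mean ± SD of each gate (n = 4). Sfrp1, Sfrp2, Sfrp5 and Porcn are lowest in the high gate, Dkk1, Dkk3 and Wif1 highest there, Frzb lowest in the negative gate and Wls highest in the low gate.

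Sfrp2 encodes a secreted Frizzled-related protein whose cysteine-rich domain resembles the WNT-binding part of Frizzled receptors, and it gave the smallest p among these genes. Its level in replicates 1 to 4 was 97.0, 137.5, 103.6 and 102.8 CPM in the negative gate and 127.5, 105.3, 107.9 and 122.9 in the low gate. The medium libraries had 70.5, 56.7, 57.2 and 79.7 CPM and the high libraries 28.3, 26.8, 32.4 and 26.8. Negative and low libraries overlapped, all medium libraries lay below both, and all high libraries lay below every medium one. Means were 110.2 ± 18.4, 115.9 ± 11.0, 66.0 ± 11.1 and 28.6 ± 2.64 CPM (SD, n = 4) from negative to high. Sfrp2 fell by 1.94 on the log2 scale in high versus negative (SE 0.14, adjusted p = 1.59e-10) and by 0.74 in medium versus negative (SE 0.13, adjusted p = 0.000439). No difference was called between low and negative (0.07, SE 0.13, adjusted p = 0.863). Sfrp2 lies on chromosome 3 at 83766321 to 83774316, plus strand (GRCm38), and shares exonic sequence with the antisense gene Gm26771, from which its reads cannot be told apart where counting did not use strand.

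Sfrp1, a paralogue on chromosome 8 at 23411502 to 23449632, plus strand, fell over the same gates with more spread between libraries. Its level was 84.6, 121.5, 141.2 and 89.7 CPM in the negative gate and 127.1, 97.3, 122.7 and 76.9 in the low gate. It was 47.4, 94.99, 56.9 and 47.6 CPM in the medium gate and 27.9, 33.1, 28.2 and 39.6 in the high gate. Medium 2 stood about as high as the negative and low libraries, the other medium libraries lay below all of those, and no high library reached the lowest medium one. Sfrp1 fell by 1.77 on the log2 scale from negative to high (SE 0.21, adjusted p = 1.18e-06) and by 0.82 from negative to medium (SE 0.20, adjusted p = 0.00943). The step from low to medium missed the threshold (−0.78, adjusted p = 0.0805), but passed it with DESeq2 (adjusted p = 0.0211) and with no filter on low counts. Without medium 2 that step was −1.07 and called (adjusted p = 0.00297), whereas the step from medium to high, −0.95 in all libraries (adjusted p = 0.025), was −0.68 and not called (adjusted p = 0.0726). The call from medium to high was also lost without medium 3 or without high 1, 2 or 3, singly (adjusted p from 0.0504 to 0.119), and that from low to medium was gained without low 4 (−0.91, adjusted p = 0.0417).

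Sfrp5, another member of the family, on chromosome 19 at 42197971 to 42202252, minus strand, had the largest fall of the 8 tested genes. Its level was 42.9, 25.5, 47.7 and 48.7 CPM in the negative gate and 60.15, 23.8, 44.75 and 53.5 in the low gate. It was 31.1, 16.2, 24.7 and 25.1 CPM in the medium gate and 9.31, 4.81, 8.17 and 7.31 in the high gate. The high libraries lay below all others, the medium libraries overlapped with the negative and low ones, and replicate 2 was the lowest of its gate each time. From negative to high it fell by 2.45 on the log2 scale (SE 0.27, adjusted p = 3.62e-07). Between medium and high it fell by 1.68 (SE 0.28, adjusted p = 0.00181), and between low and medium the difference of −0.92 was not called (adjusted p = 0.0821). That difference was called with DESeq2 (adjusted p = 0.0287), with no filter (adjusted p = 1.27e-05), and without negative 2 (adjusted p = 0.0485) or low 2 (−1.13, adjusted p = 0.00713). The smaller difference of medium versus negative, −0.77 (SE 0.24), was called with an adjusted p of 0.0444, close to the threshold. That call was lost without any 1 of negative 1, 3 or 4, low 3, medium 2, 3 or 4, or high 1, 3 or 4, with adjusted p from 0.0501 to 0.14.

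Frzb, the fourth member of the family among the genes described here and a secreted WNT-binding protein first described in cartilage, did not follow the other 3. It lies on chromosome 2 at 80411970 to 80447625, minus strand. Its level was 12.8, 14.8, 10.01 and 6.86 CPM in the negative gate and 18.6, 21.2, 20.05 and 21.3 in the low gate. It was 20.07, 30.5, 19.4 and 23.4 CPM in the medium gate and 15.5, 24.3, 17.1 and 15.8 in the high gate. All 12 libraries with FOXA2 lay above all 4 negative libraries, and the low, medium and high libraries overlapped. The log2 fold change against negative was 0.89 for low (SE 0.21, adjusted p = 0.013), 1.09 for medium (SE 0.21, adjusted p = 0.000944) and 0.72 for high (SE 0.21, adjusted p = 0.0204). No difference was called among low, medium and high (adjusted p from 0.641 to 0.961). The call for high versus negative was lost without negative 3 (0.68, adjusted p = 0.0516), negative 4 (0.53, adjusted p = 0.0961) or high 2 (0.56, adjusted p = 0.097), and that for low versus negative without negative 4 (0.69, adjusted p = 0.0618).

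The makeup of these 4 genes of the family therefore changed along with their total. Sfrp4, also of this family, had 12 counts over all libraries and is not included. Counts of Sfrp1, Sfrp2, Sfrp5 and Frzb summed to 272 ± 33.9, 288 ± 36.2, 175 ± 17.0 and 86.3 ± 3.92 CPM from negative to high (SD, n = 4). Frzb made up 4.10% ± 1.26, 7.17% ± 1.28, 13.2% ± 1.57 and 21% ± 4.29 of these counts, in the same order. Its share ran from 2.77% to 5.39%, from 5.58% to 8.56%, from 11.9% to 15.4% and from 17.7% to 27.3% over the libraries of each gate, so no 2 gates overlapped. The share of Sfrp5 was 15.5% ± 4.92, 15.6% ± 4.36, 14.1% ± 4.33 and 8.64% ± 2.56. The shares of Sfrp5, Sfrp1 and Sfrp2 each overlapped between all gates. These shares are of reads near transcript ends, with no correction for length. They are given without a test, since the shares follow from the levels above.

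**Figure D2:**
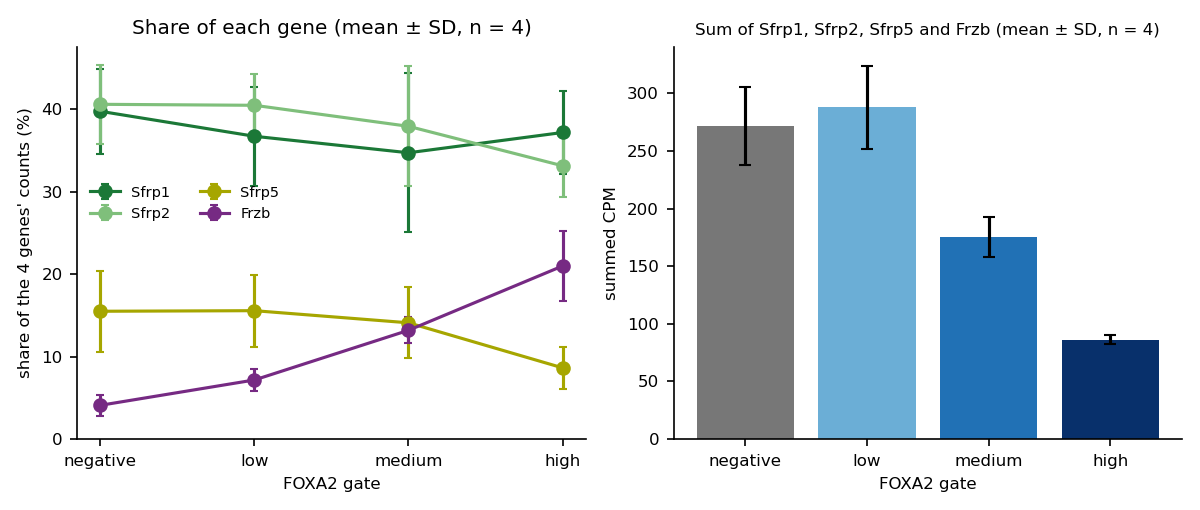
Left, share of the summed counts of Sfrp1, Sfrp2, Sfrp5 and Frzb held by each gene (%) in each FOXA2 gate; right, their summed level (CPM), both as mean ± SD over 4 libraries. From negative to high, the sum goes from 272 to 86.3 CPM and the share of Frzb from 4.10% to 21%.

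Dkk1 and Dkk3 rose with FOXA2. Dkk1, the LRP5 and LRP6 antagonist known for its role in forming the head, lies on chromosome 19 at 30545863 to 30549665, minus strand. It had 0, 0, 1 and 4 counts in the negative libraries, 4, 2, 4 and 7 in the low libraries, 13, 11, 6 and 13 in the medium libraries and 27, 28, 21 and 20 in the high libraries. In CPM, the gate means were 0.148 ± 0.194, 0.61 ± 0.285, 1.81 ± 0.622 and 5.22 ± 1.70 (SD, n = 4). The low, medium and high libraries formed separate ranges in CPM in that order, and only low and negative overlapped. Pooled over libraries, 96 counts in the high gate against 5 in the negative gate gave a depth-scaled ratio of 26.5 (95% exact interval 10.95 to 83.3, counting error only). The pooled ratio to negative was 9.75 for the medium gate (3.87 to 31.5) and 3.36 for the low gate (1.19 to 11.6). The fitted log2 fold change was 4.71 for high versus negative (SE 0.63, adjusted p = 4.85e-06), 3.21 for medium versus negative (SE 0.67, adjusted p = 0.00223) and 1.69 for low versus negative (SE 0.75, adjusted p = 0.279). These fitted values move with the prior count, since 2 negative libraries are at 0, and the filter let Dkk1 in through gates where it is high. Without negative 4, which holds 4 of the 5 counts, the fitted value for high versus negative was 6.04.

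Dkk3, a divergent DKK family member that is not known to act on WNT co-receptors the way DKK1 does, lies on chromosome 7 at 112116017 to 112159057, minus strand. Its level was 4.37, 2.43, 2.37 and 2.76 CPM in the negative gate and 7.35, 8.12, 4.66 and 3.92 in the low gate. It was 9.05, 9.895, 8.64 and 10.2 CPM in the medium gate and 30.6, 18.7, 19.7 and 21 in the high gate. Every high library lay above every medium library and every medium library above every low one, while low and negative overlapped, since low 4 lay below negative 1. Against the negative gate the log2 fold change was 1.00 for low (SE 0.27, adjusted p = 0.0382), 1.66 for medium (SE 0.27, adjusted p = 0.000128) and 2.91 for high (SE 0.26, adjusted p = 7.85e-09). The difference between high and medium was 1.26 (SE 0.23, adjusted p = 0.00512). It was 1.06 and not called without high 1, the highest library (adjusted p = 0.0515). The call for low versus negative was lost without negative 2, 3 or 4 or low 1 or 2 (adjusted p from 0.0994 to 0.137), and in a fit of those 2 gates alone (adjusted p = 0.12).

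Wif1, which encodes a secreted protein that binds WNT ligands through its WIF domain, was too low to be tested. It lies on chromosome 10 at 121033960 to 121100650, plus strand. It had 1, 2, 1 and 1 counts in the negative libraries, 7, 1, 1 and 0 in the low libraries, 4, 1, 2 and 3 in the medium libraries and 14, 15, 17 and 4 in the high libraries. In CPM, all 4 high libraries (1.22 to 3.79) lay above every other library, of which low 1, at 0.887, was the highest. The pooled ratio of high to negative was 13.8, from 50 counts against 5 (95% exact interval 5.53 to 44.3, counting error only). The intervals of the medium gate (2.27, from 0.706 to 8.45) and the low gate (1.78, from 0.535 to 6.75) both included no change. In a fit with no filter on low counts, 25725 genes were tested and Wif1 had a log2 fold change of 3.59 for high versus negative (SE 0.89, adjusted p = 0.00132). That fit also moved the adjusted p of well-measured genes, in both directions. It was 3.58e-06 for Sfrp1 between medium and low (0.0805 with the filter) and 0.0444 for Wls between high and negative (0.0252 with the filter).

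Wls, the carrier that brings lipidated WNT from the secretory pathway to the cell surface, was highest at an intermediate FOXA2 level. It lies on chromosome 3 at 159839672 to 159938664, plus strand. Its level was 77.6, 83.2, 105.0 and 83.4 CPM in the negative gate and 112.7, 130.9, 126.6 and 107.8 in the low gate. It was 107.3, 97.1, 114.9 and 92.3 CPM in the medium gate and 61.7, 72.3, 68.1 and 66.05 in the high gate. All low libraries lay above all negative libraries, medium overlapped with both, and all high libraries lay below every other library. Wls rose by 0.45 on the log2 scale from negative to low (SE 0.11, adjusted p = 0.0221) and fell by 0.83 from low to high (SE 0.12, adjusted p = 2.42e-05). It fell by 0.62 from medium to high (SE 0.12, adjusted p = 0.00561), and from negative to high it had a net log2 fold change of −0.38 (SE 0.12, adjusted p = 0.0252).

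Wls was the 1 gene of the 8 tested with a call above negative at low or medium and, at that same gate, a call above high. Across all tested genes, 22 met this rule, or 0.158%. The rise from negative to low was lost without negative 1, 2 or 4 or without low 2 or 3 (log2 fold change from 0.40 to 0.43, adjusted p from 0.0645 to 0.0865). The net fall from negative to high was lost without negative 3 (−0.28, adjusted p = 0.113), high 1 (−0.34, adjusted p = 0.0862) or high 4 (−0.38, adjusted p = 0.052), and after thinning every library to the same total (−0.35, adjusted p = 0.0505).

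Porcn, on chromosome X at 8193848 to 8206525, minus strand, encodes the acyltransferase that attaches the lipid WLS needs to recognise a WNT. Its level was 68.2, 51.05, 67.5 and 66.8 CPM in the negative gate and 59.8, 44.0, 64.2 and 70.8 in the low gate. It was 49.4, 36.45, 46.7 and 61.7 CPM in the medium gate and 31.8, 23.0, 37.5 and 25.3 in the high gate. High libraries lay below all negative and low ones, while neighbouring gates overlapped throughout. The log2 fold change was −1.09 for high versus negative (SE 0.18, adjusted p = 6.21e-05) and −1.01 for high versus low (SE 0.17, adjusted p = 0.000364). The values of −0.38 for medium versus negative (adjusted p = 0.186) and −0.71 for high versus medium (adjusted p = 0.0516) missed the threshold. The second was called without negative 2, low 2, medium 2 or high 3 (adjusted p from 0.0119 to 0.0486), with DESeq2 (adjusted p = 0.014), with no filter (adjusted p = 0.000399), after thinning (adjusted p = 0.0392) and from those 2 gates alone (adjusted p = 0.0485). Porcn overlaps the non-coding gene Gm33135, which had 34 counts in all.

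**Figure D3:**
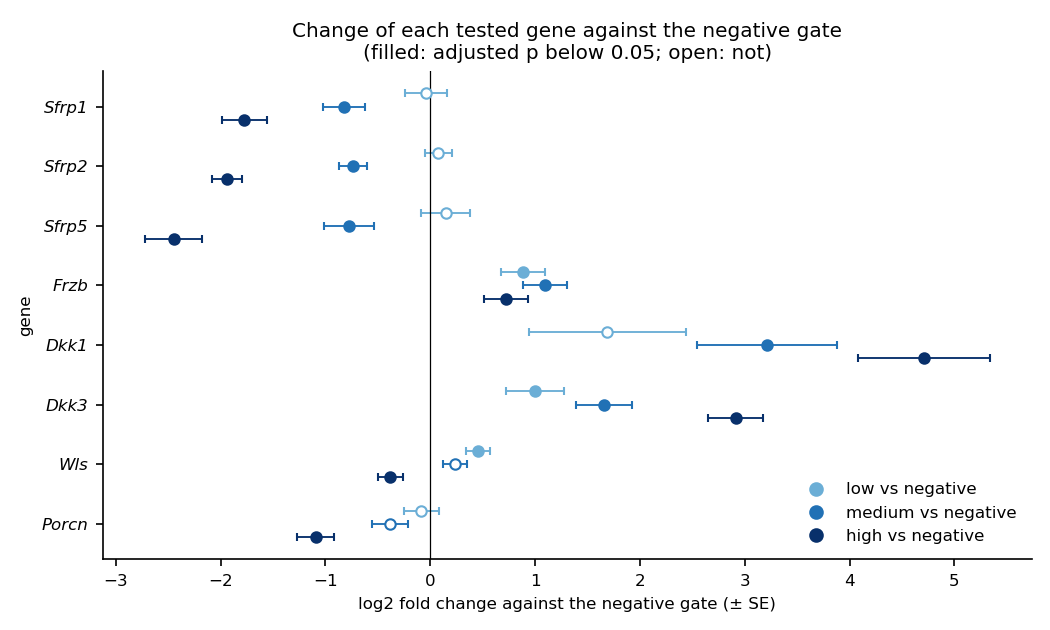
Fitted log2 fold change ± SE of the 8 tested genes in the low, medium and high gates against the negative gate (16 libraries, edgeR); filled points passed the threshold. Sfrp1, Sfrp2 and Sfrp5 lie near 0 in the low gate and below it in the medium and high gates, while Frzb, Dkk1 and Dkk3 lie above 0 in all 3 and Wls changes sign.

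The order in which these genes moved along the gates differed. From negative to low, Frzb, Dkk3 and Wls were called higher (3 of the 7 without Dkk1, background 1.36%), and these were the only calls (background for lower, 2.23%). For medium versus negative, Frzb and Dkk3 were higher (2 of 7, background 4.2%) and Sfrp1, Sfrp2 and Sfrp5 lower (3 of 7, background 4.18%). Between the low and medium gates, Sfrp2 alone was called, as lower (−0.81, SE 0.13, adjusted p = 0.00119), where 0.223% of all genes were lower and 0.482% higher. For high versus medium, Dkk3 was higher (background 0.317%) and Sfrp1, Sfrp2, Sfrp5 and Wls lower (4 of 7, background 0.518%). For high versus low, Dkk3 was higher (1 of 7, background 3.75%) and the 3 SFRP genes, Wls and Porcn lower (5 of 7, background 3.07%). The median log2 fold change of the 8 tested genes, Dkk1 included, was 0.30 for low versus negative, −0.07 for medium versus negative and −0.74 for high versus negative, beside 0.02, 0.0013 and 0.0019 over all genes. The 3 comparisons share the negative libraries, and the counts beside a background are descriptive here too.

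Across the 16 libraries, Pearson's r of log2(CPM + 1) was 0.87 between Sfrp1 and Sfrp2, 0.92 between Sfrp2 and Sfrp5 and 0.89 between Dkk1 and Dkk3. Sfrp2 and Dkk1 ran in opposite directions (r = −0.91), and Frzb was only weakly related to the other SFRP genes (r from −0.32 to −0.22). These values describe the same libraries and gates and carry no test. Among 8730 candidate genes, those most like Sfrp2 were Hes5, a Notch target (r = 0.976), Pax6, a neural progenitor transcription factor (r = 0.970), and Mest (r = 0.951). Pax6 was also nearest to Sfrp5 (r = 0.968), followed by the axon guidance receptor Robo2 (r = 0.951) and Porcn (r = 0.949). Hes5 and Pax6 belong to the neural progenitor markers whose sum fell toward the high gate. Genes close to Sfrp1 included Tacc1 (r = 0.956) and Mest (r = 0.934).

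The rising genes had other neighbours. Dkk3 was most like Tes (r = 0.971), Smoc2, a secreted matrix protein (r = 0.958), and Nkx2-9, a ventral homeobox gene (r = 0.956). Dkk1 was most like Mmp11 (r = 0.951), Igfbp4 (r = 0.949) and Cmtm8 (r = 0.948). For Wls the nearest were Nefl, a neurofilament subunit (r = 0.920), Palm3 (r = 0.901) and Scrn1 (r = 0.892), and all 3 had their highest mean in the low gate. Nefl averaged 42.6, 61.8, 53.9 and 29.5 CPM from negative to high. For Frzb the likeness was lower, led by the membrane protease gene Mmp14 (r = 0.860), Nuak1 (r = 0.859) and Myo18a (r = 0.857). Porcn was nearest to Sfrp5, Herpud1 (r = 0.948) and Ly6h (r = 0.939).

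Other genes of the pathway, from lists, were compared between high and negative, where 8.29% of all tested genes were called higher and 8.48% lower. The lists were also chosen with earlier results of these data known, so the numbers of genes called are descriptive. A gene with no library at the filter's minimum in its lower gate was tested only because of the gates where it is high. The filter thus favoured a difference, and a call of such a gene is not independent of it. Of 11 tested WNT ligand genes, 5 were called, all of them lower (median log2 fold change of the 11, −1.27, beside 0.0019 over all genes), and 3 of the 5, Wnt1, Wnt3a and Wnt8a, had no high library at that minimum. Wnt1, made by the dorsal midline and the midbrain boundary, went from 6.68 ± 1.84 to 0.523 ± 0.16 CPM (log2 fold change −3.56, SE 0.48, adjusted p = 5.96e-06). Wnt3a went from 2.27 ± 1.84 to 0.14 ± 0.164 CPM (adjusted p = 0.00279), Wnt8a from 3.63 ± 1.40 to 0.688 ± 0.294 (adjusted p = 0.00179) and Wnt3 from 7.25 ± 1.03 to 1.91 ± 0.715 (adjusted p = 0.00266). In the low gate Wnt3a averaged 2.45 CPM and Wnt1 7.26, and neither was called against negative (adjusted p = 0.951 and 0.924). Beside the ligands, the 5 roof plate and dorsal tube markers, of which Wnt1 is 1, summed to 79.4 to 114.9 CPM in the negative libraries and 62.5 to 101.4 in the high ones (2 of 4 tested lower, Gdf7 at 0 throughout). Among them Pax3, a dorsal transcription factor, averaged 33.8 and 5.46 CPM (log2 fold change −2.62, adjusted p = 1.18e-07). Msx1, which held most of the sum, went the other way, from 62.0 to 82.7 CPM, and was not called (0.42, adjusted p = 0.0602). Lmx1a was not called either (adjusted p = 0.324). The 4 neuron markers summed to 130.7 to 215 and 46.9 to 69.8 CPM (3 of 3 tested lower). The part of these shifts in the ligand changes was not tested.

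Of 9 tested antagonists other than those above, 4 were called, all higher (median 0.35). Igfbp4, an IGF-binding protein that can also block WNT receptors, went from 34.2 ± 1.38 to 151 ± 27.3 CPM (log2 fold change 2.14, SE 0.15, adjusted p = 8.86e-11). Dkk2 went from 0.183 ± 0.215 to 1.67 ± 0.766 CPM (adjusted p = 0.00601), Sost, an LRP5 and LRP6 antagonist, from 0.648 ± 0.441 to 3.10 ± 1.13 (adjusted p = 0.0086) and Trabd2b, a protease that cleaves WNT, from 5.67 ± 2.55 to 12.6 ± 3.76 (adjusted p = 0.0113). Both Dkk2 and Sost had few counts, 98 and 201 over all libraries, and no negative library at the filter's minimum. These 2 of the 4 calls are therefore not independent of the filter.

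On the receiving side, 2 of 16 tested receptors and co-receptors were called, both higher (median 0.22), a share of 12.5% near the 8.29% called higher among all genes. Fzd2, a Frizzled receptor, went from 70.2 ± 10.5 to 223 ± 13.2 CPM (log2 fold change 1.67, SE 0.13, adjusted p = 4.29e-10), and Ptk7, a co-receptor, from 34.2 ± 1.55 to 48.3 ± 6.16 (adjusted p = 0.00536). Of 6 glypicans, cell-surface proteoglycans that bind WNT ligands, 2 were called, both higher: Gpc3, from 65.6 ± 10.1 to 203 ± 22.4 CPM (adjusted p = 1.18e-09), and Gpc2, from 6.45 ± 1.06 to 10.6 ± 1.44 (adjusted p = 0.0286). Among 6 R-spondin pathway genes, the Frizzled ubiquitin ligase gene Rnf43, which had no negative library at the filter's minimum, was higher (log2 fold change 1.93, adjusted p = 0.0252) and the ligand gene Rspo3 lower (−1.37, adjusted p = 0.0124).

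For the retromer, the sorting complex that recycles WLS, and its partner Snx3, 0 of 5 genes were called in any of the 6 comparisons by edgeR, 0 had an unadjusted p under 0.05, and 0 were called by DESeq2. Snx3 averaged 217, 225, 214 and 222 CPM and Vps29 166, 169, 167 and 148 CPM from negative to high (adjusted p for high versus negative 0.882 and 0.359). Of 12 tested response genes, 6 were higher in the high gate and 1 lower (median 0.45), and 2 of the 6, T and Rnf43, had no negative library at the filter's minimum. T, the mesodermal transcription factor brachyury, went from 0.478 ± 0.187 to 4.25 ± 2.74 CPM (adjusted p = 0.000203) and Cdx2, a posterior homeobox gene, from 1.40 ± 0.954 to 3.80 ± 0.785 (adjusted p = 0.0329). Cdx2 had 1 negative, 0 low, 1 medium and 4 high libraries at the filter's minimum. It thus passed the filter only through the high gate, and its call is not independent of the filter either. Sp5 was at 10.2 ± 3.47 CPM in the negative gate and 93.6 ± 15.1 in the high gate (adjusted p = 8.36e-11). The 1 lower gene was Lef1, from 42.5 ± 10.6 to 24.0 ± 3.54 CPM (log2 fold change −0.82, adjusted p = 0.00462). Axin2 was not called, at 38.4 ± 5.26 and 38.7 ± 6.74 CPM (0.011, adjusted p = 0.975). Rnf43, also on this list, is given above. Notochord markers, of which T is 1, summed to 1.13 to 2.08 CPM in the negative gate and 6.32 to 15.7 in the high gate (2 of 2 tested higher, Noto at 0 throughout). Both calls rest on low negative levels. The call of T is not independent of the filter, and Chrd averaged 0.823 CPM in the negative gate, under the filter's minimum of about 1.68 CPM. The part of these markers in the change of T was not tested.

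**Figure D4:**
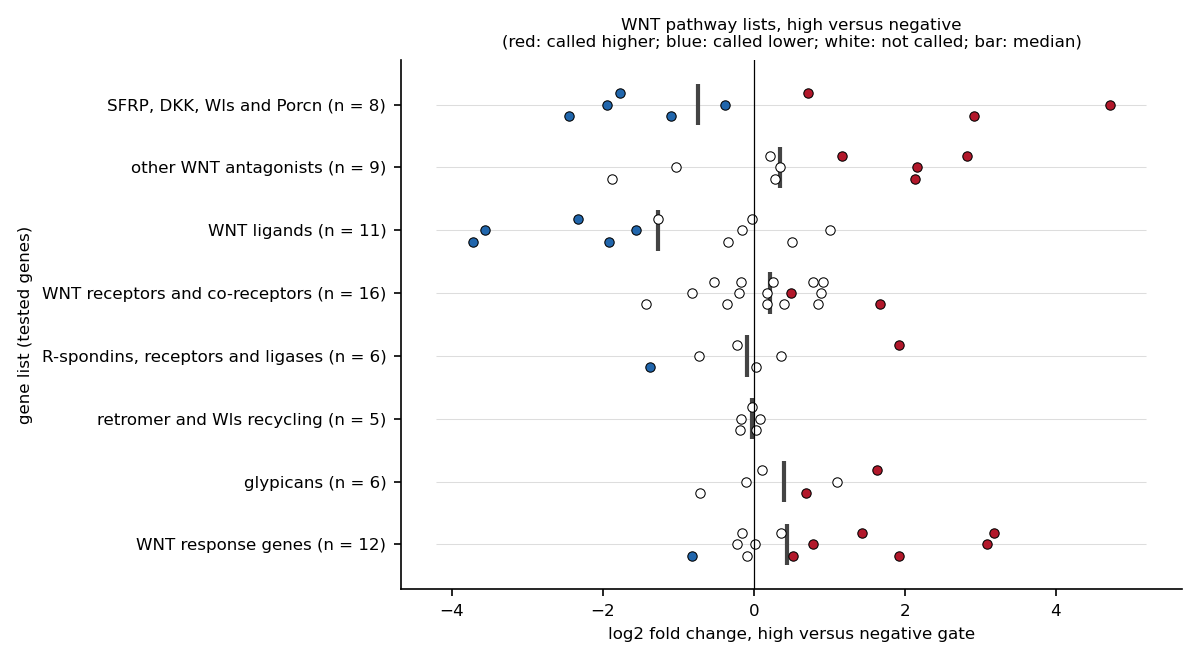
Fitted log2 fold change of high versus negative for each tested gene of the WNT lists (points, 1 per gene, filled where called) with the median of each list as a bar. The ligands lie mostly below 0 (median −1.27), the retromer genes near 0, and the other antagonists on both sides of it (median 0.35).

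Sfrp5 and Porcn shared 1 further feature. Each had its lowest level in replicate 2 in all 4 gates: 25.5, 23.8, 16.2 and 4.81 CPM for Sfrp5 and 51.05, 44.0, 36.45 and 23.0 CPM for Porcn. Replicate 2 was lowest in all gates for 107 of the 13891 tested genes (0.77%), and the same number, whichever it was, for 400 (2.88%). This pattern was picked out after the values were seen, and what the replicate numbers stand for is not given in the labels.

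**Figure D5:**
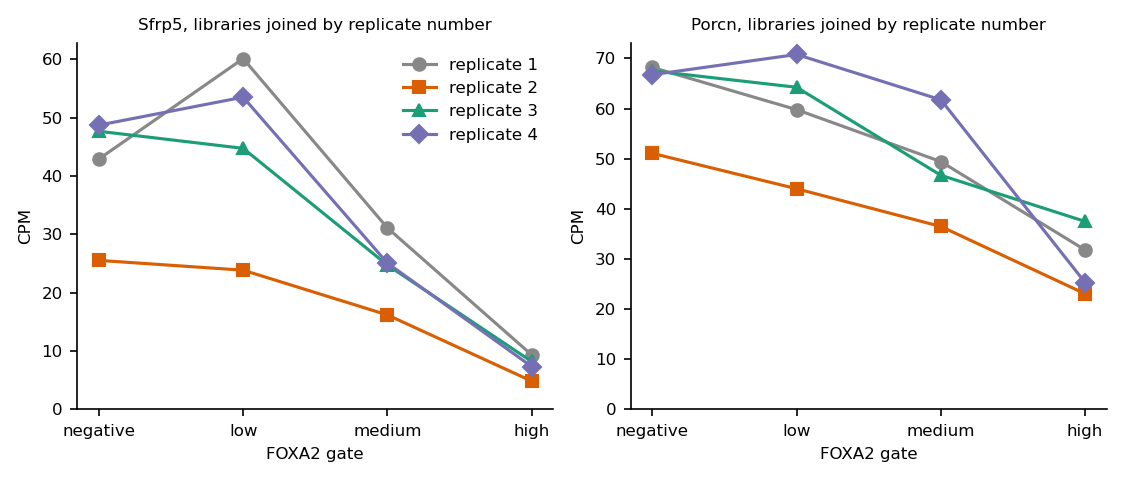
Levels of Sfrp5 and Porcn (CPM) in each library by gate, with lines joining libraries of the same replicate number. The line of replicate 2 is lowest in every gate for both genes.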

How the data were processed

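Raw counts were used as the authors deposited them: whole-number counts for 35976 genes in 16 libraries, not normalized. Per the submitters' processing notes, the tools were STARsolo 2.7.9a, cutadapt 1.18 and DESeq2 1.42.0, with GRCm38 as the build. Which annotation and strand setting were used, and whether reads were collapsed by molecule, is in each case not given in the sources used here. Groups came from the labelled FOXA2 expression.

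The edgeR 4.0.16 filter in R 4.3.3 (a count minimum of 10, about 1.68 CPM, in at least 4 libraries) kept 13891 genes with at least 99.665% of each library's counts. TMM factors were 0.97 to 1.05. A single quasi-likelihood model with 4 gates was fitted to all 16 libraries. It gave 6 pairwise tests and a test of any difference among gates, each with Benjamini-Hochberg adjustment at 0.05. The SE was taken as log2 fold change over the root of F. Where a library has no count, up to 3 counts remain possible, or 0.913 CPM at the lowest depth. Intervals cover counting error only, as PCR copies are not independent molecules. Replicates of a gate differed beyond sampling noise (chi-square per degree of freedom at least 4.25 over 24 pairs).

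The members and lists were chosen with earlier results of these data known. All 9 members are named, and from each list up to 4 genes called in high versus negative, largest change first (with fewer than 2 called, the 2 of highest mean). Some genes stand in more than 1 list. For likeness, the 3 genes of highest r were taken among named genes with a mean of at least 10 CPM in some gate. Some genes that these rules take are left out of the text, and the response genes Lef1 and Axin2 were added outside them. Positions are from GENCODE M21 and promoters from RefSeq (GRCm38.p6).

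In simulated data for high versus negative (13891 genes), the test found 61 of 100 genes altered 2-fold and 95 of 100 altered 4-fold, and it called 9 of 13691 unaltered genes. The simulated counts used the spread fitted by the same model, and all other genes were equal between gates. These numbers therefore describe the test under its own model and give no error rate for the real libraries. The results were recomputed with RLE scaling, with DESeq2 1.42.0, unfiltered, with the replicate number as a block, thinned to 3268948 counts, from the 2 gates compared alone, with each library left out, and with low 1 and medium 2 left out together.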

Additional observations from a re-analysis of the deposited data

Results flagged for a closer look

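Of 36 combinations of gene and gate, 2 held a library far from the other 3 of its gate by Dixon's test, and chance alone marks about 1 in 20. Both were in the library negative 2. Sfrp2 stood at 137.5 CPM there, from 792 counts, above the 97.0 to 103.6 CPM of the other negative libraries. Porcn stood at 51.05 CPM, from 294 counts, below the 66.8 to 68.2 CPM of the others. Without negative 2, high versus negative gave a log2 fold change of −1.82 for Sfrp2 (adjusted p = 7.9e-10) and −1.19 for Porcn (adjusted p = 5.32e-05, edgeR), so both stayed called.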

How the results depend on the processing

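Of 1095 values of the 48 tested differences under alternatives, 1025 kept their direction and side of the threshold, 41 lost a call, 21 gained one and 8, all of uncalled differences, changed sign. The high versus negative calls of Sfrp1, Sfrp2, Sfrp5, Dkk1, Dkk3 and Porcn held under every alternative that tested them; Dkk1 had too few counts to be tested after thinning. The 3 calls of low versus negative became 1 after thinning, and 0 to 3 with a library left out (0 without negative 4, 1 without negative 2 or low 2). The 1 call of medium versus low became 3 with DESeq2, with no filter and with the replicate block, 2 without low 1 and medium 2, and 1 to 2 with a library left out (2 without negative 2, low 2, low 4 or medium 2). The 5 calls of high versus medium ranged from 3, without high 1, to 6 with a library left out. For low versus negative, the uncalled log2 fold change ranged from −0.14 to 0.11 for Sfrp1, from −0.024 to 0.36 for Sfrp5 and from −0.18 to 0.036 for Porcn with a library left out, and was −0.0042 for Sfrp5 without low 1 and medium 2. Over all genes, medium versus low had 67 calls higher and 31 lower, against 158 in all with DESeq2 and 199 with no filter, and high versus medium 44 and 72, against 183 and 248. The causes were not tested.

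Same-numbered libraries were at most weakly alike: 24 correlations between them ran from −0.098 to 0.248 and 7 were over 0.1. Of the 16 libraries, 8 correlated best with their own number. These values do not settle whether the numbers pair the samples, and the labels do not say. With the replicate block, Sfrp1 and Sfrp5 for medium versus low (adjusted p = 0.0333 and 0.000812) and Porcn for high versus medium (adjusted p = 0.00589) were gained, and no other call of these genes changed. Depth limits Dkk1 and Wif1 most, with 5 counts each over the negative gate.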
